A study of Drosophila melanogaster with 4 samples.

Results

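The wild-type strains of the series, Canton S and RAL-208, were compared with each other in RNA from the eye-antennal imaginal disc of wandering larvae in the third instar. The comparison takes 2 of the 4 samples, 1 library per strain, chosen by their strain labels. Canton S is a long-kept laboratory wild type, and RAL-208 is a strain for which the design text cites the work of Jordan and of Ayroles; both carry the genotype label wild-type. The other 2 samples are technical replicate libraries of discs from the glass mutant gl[60j] at the same stage, and they serve here as a yardstick of technical spread and as a further pair of values for each gene. No label gives the number of animals, their sex, the dissection date or the rearing of either strain. With 1 library per strain the differences have no replicate check, so they are described by size and carry no test. Strain, dissection, exact age and library cannot be told apart in this design.

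The eye-antennal disc is a larval epithelium that forms the adult eye, antenna and head capsule. Behind a furrow that crosses its eye portion, cells are recruited as photoreceptors, whose axons run through the optic stalk to the brain. In the larva the disc lies beside the brain, the ring gland, the salivary glands and lobes of fat body, which are bathed by the same haemolymph. Wandering is the time at which the fat body has filled with storage proteins and the salivary glands make glue.

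Gene reads numbered 12118170 in Canton S and 11805345 in RAL-208, and a gene with 0 reads could stand as high as 0.248 and 0.254 CPM by a floor of 3 reads. CPM is the count of a gene divided by all gene reads of its library and scaled as parts of a fixed total. Ratios are given on CPM, with an exact 95% interval of the read ratio that covers counting error only, since reads are not independent molecules. Log2 ratios are of CPM plus 1, RAL-208 over Canton S, and a gene was called different where that ratio was at least 2-fold. The eye and antennal discs were present in both libraries by their defining markers. The 9 eye disc markers summed to 2129 CPM in Canton S and 1981 CPM in RAL-208, and the 5 antennal markers to 1252 and 1348 CPM. The lowest eye marker stood at 77.0 CPM in Canton S and 64.7 CPM in RAL-208, the lowest antennal marker at 38.4 and 35.7 CPM, and none was 2-fold apart. The sex of the larvae is not in the labels. The male-specific RNAs lncRNA:roX1 and lncRNA:roX2, which act in dosage compensation, were not 2-fold apart, at 954 and 38.3 CPM in Canton S and 950 and 34.6 CPM in RAL-208.

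Of 7976 genes with at least 5 CPM in either strain, 471 differed at least 2-fold, which is 5.91% of them. RAL-208 had the higher level for 251 genes, 3.15% of those tested, and Canton S for 220 genes, 2.76%. The median log2 ratio over all genes was 0.0079 and the standard deviation across genes was 0.60. The same rule applied to the technical mutant libraries gave 4 of 7406 genes, 0.054%, with a standard deviation of 0.12. For each of the 471 genes the counting interval left out a ratio of 1, which the floor and the 2-fold rule bring about by themselves at this depth. The share called and the spread were larger than between libraries of the same sample. The spread between dissections of the same strain was not measured.

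The share of genes called differed with their level. It was 24.5% of the 961 genes with a mean below 10 CPM, 6.96% of the 2039 genes from 10 to 30 CPM, 2.43% of the 2674 genes from 30 to 100 CPM, 1.35% of the 1627 genes from 100 to 300 CPM and 1.04% of the 675 genes above that. A gene of low level can enter the comparison through the strain in which it is high, which makes it likely to be called. Over all genes from 10 CPM up, 236 of 7015 were called, 3.36%. Counts over gene lists are therefore given beside the number of members measured, and they describe these libraries only.

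**Figure D1:**
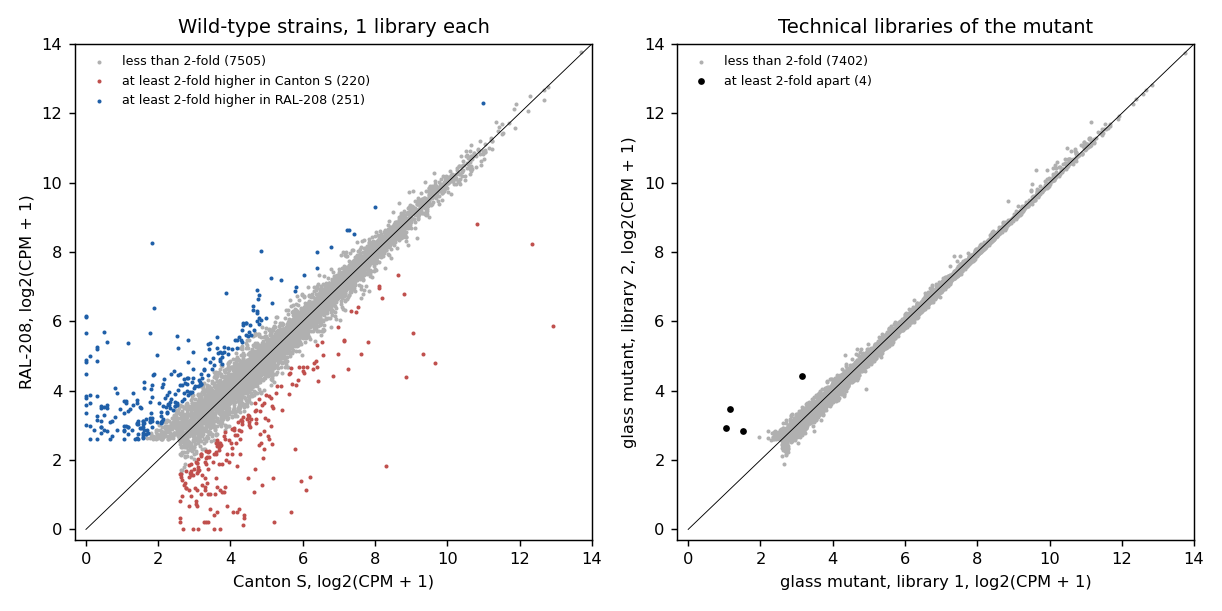
Left, log2 of CPM plus 1 of each gene past the floor in Canton S (horizontal) and RAL-208 (vertical), with 220 genes at least 2-fold higher in Canton S in red and 251 at least 2-fold higher in RAL-208 in blue; right, the same for the technical mutant libraries, with the 4 genes 2-fold apart in black. The line is equality, and the cloud of the strains is wider than that of the technical libraries at every level.

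No gene of the disc patterning lists reached 2-fold. The lists of eye field genes, photoreceptor fate, furrow and disc signalling, the Enhancer of split and Bearded complexes, and the antennal disc hold 89 measured genes, of which 84 passed the floor and 0 were called. Of these, 78 had a mean of at least 10 CPM, where the share over all genes was 3.36%, so a count of 0 is near that background. Their median log2 ratio was -0.09, and their range ran from -0.88 for E(spl)m5-HLH, a Notch target of the basic helix-loop-helix repressor family, to 0.83 for Ocho, a Bearded family inhibitor of Notch signalling. Growth and housekeeping lists gave the same count of 0. Cell cycle genes, cytoplasmic and mitochondrial ribosomal proteins, nuclear-encoded respiratory chain subunits and proteasome subunits held 256 genes past the floor, 0 of them called, with a range from -0.49 for ND-B15 to 0.63 for RpS15Ab. The cone and pigment cell list had 1 gene called of 18, namely st, at 7.59 CPM in Canton S and 3.05 CPM in RAL-208, which encodes an ABC transporter subunit for pigment precursors. That count is near the background of 5.91% of all genes. The gene st passed the floor through Canton S alone, so its direction was set by the choice of genes.

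Lists of other larval tissues held called genes in both directions. Fat body, salivary gland, muscle, haemocyte, ring gland and hormone, and neuroblast and brain genes together held 107 measured genes, 82 of them past the floor, and 30 were called, 17 higher in Canton S and 13 higher in RAL-208. Members with a mean below 10 CPM gave 6 of 10 called, beside 24.5% of all genes at that level, and those from 10 CPM up gave 24 of 72, beside 3.36%. Of the called genes, 6 fat body, 6 salivary gland and 4 ring gland genes were higher in Canton S, and 5 haemocyte and 3 muscle genes were higher in RAL-208. In bulk RNA fewer cells of a type and less RNA per cell cannot be told apart. The part of tissue left attached to the discs in these differences was not tested.

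**Figure D2:**
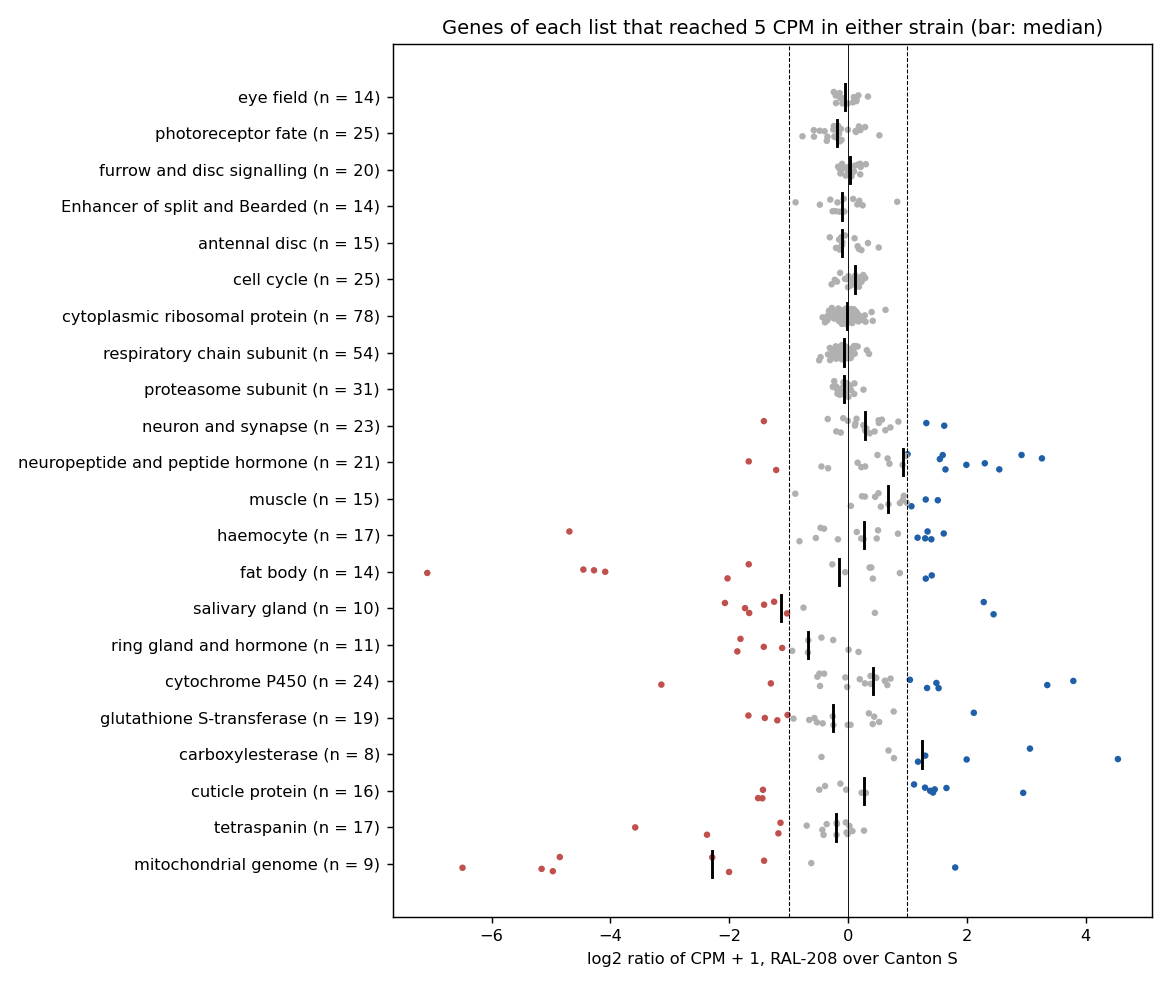
Log2 ratio of CPM plus 1, RAL-208 over Canton S, for each member past the floor of 22 lists (points, red where at least 2-fold higher in Canton S and blue where in RAL-208), with the median of each list as a bar; dashed lines mark a 2-fold difference. The disc patterning and growth lists stay within the lines, whereas fat body, salivary gland, neuropeptide, haemocyte, mitochondrial genome and detoxification lists reach beyond them.

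In the fat body list, 21 genes were measured and 14 passed the floor, with 6 higher in Canton S and 2 higher in RAL-208 and a median log2 ratio of -0.16. All 14 had a mean of at least 10 CPM, where 3.36% of all genes were called. The 5 defining fat body markers, none of them at 0, summed to 15948 CPM in Canton S, 5553 CPM in RAL-208, and 2742 and 2665 CPM in the mutant libraries. Fbp1, the receptor through which the fat body takes storage proteins back up, was at 7835 CPM in Canton S and 56.8 CPM in RAL-208, a 138-fold difference (95% interval 128 to 149). The mutant libraries lay between the strains at 1894 and 1840 CPM. Lsp2, a late storage protein, was at 5157 and 302 CPM, 17.1-fold higher in Canton S (16.5 to 17.6). Fbp2, an abundant fat body protein of the larva, was at 465 and 20.2 CPM (23.0-fold higher in Canton S, 20.2 to 26.3). Obp99b, a member of the odorant binding protein family, was at 643 CPM in Canton S and 32.3 CPM in RAL-208, a 19.9-fold difference.

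The storage proteins themselves did not share a direction. Lsp1alpha was 4.11-fold higher in Canton S, at 448 against 109 CPM, whereas Lsp1beta was 2.48-fold higher in RAL-208 (2.44 to 2.52), at 5065 against 2043 CPM. Lsp1gamma, the remaining subunit of the same hexamer family, was at 3841 CPM in Canton S and 4944 CPM in RAL-208 and did not reach 2-fold. In the mutant libraries all 3 Lsp1 genes lay below both strains, with Lsp1beta at 31.9 and 31.1 CPM and Lsp1gamma at 56.7 and 57.7 CPM. The lipoprotein gene apolpp, another abundant fat body product, was at 1329 CPM in Canton S and 1745 CPM in RAL-208. Ilp6, the insulin-like peptide of the larval fat body, was at 16.8 and 4.57 CPM, and Thor, the translation repressor 4E-BP that insulin signalling restrains, at 140 and 42.4 CPM (3.29-fold higher in Canton S). The called genes of the list were thus Fbp1, Lsp2, Fbp2, Obp99b, Lsp1alpha and Ilp6 on the Canton S side, and Lsp1beta and CG4716, at 5.94 and 17.4 CPM, on the RAL-208 side.

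Salivary gland genes were at low level in both libraries and split by class. The list had 16 measured genes and 10 past the floor, with 6 higher in Canton S and 2 in RAL-208, or 3 and 1 with a pseudocount of 5 CPM. Members with a mean below 10 CPM gave 4 of 5 called, beside 24.5% of all genes. Those from 10 CPM up gave 4 of 5, beside 3.36%. The 5 gland markers, none of them at 0, summed to 134 CPM in Canton S and 40.1 CPM in RAL-208, and 4 of them were higher in Canton S. Glue protein genes, which encode the secretion that fixes the pupa to its substrate, were higher in Canton S in 6 of 7 cases. Sgs8 was at 27.1 CPM in Canton S and 5.68 CPM in RAL-208, Sgs7 at 48.5 and 13.9 CPM, and Sgs3 at 34.9 and 10.3 CPM. Sgs5bis was at 9.32 and 1.02 CPM, 9.17-fold higher in Canton S (5.05 to 18.3), and Sgs4 at 12.2 and 6.86 CPM was the member that did not reach 2-fold. The salivary transcription factor gene sage, at 6.85 and 1.95 CPM, was higher in Canton S as well. The genes ng2, ng3 and Pig1, which lie next to Sgs4 and are named as new glue and pre-intermoult genes of the gland, read the opposite way. They were at 0.248, 2.06 and 0.413 CPM in Canton S and at 5.08, 15.8 and 6.27 CPM in RAL-208. These 3 are the members of their group past the floor. All 3 passed it through RAL-208 alone, so their direction was set by the choice of genes. Their means were below 10 CPM, where 24.5% of all genes were called. The ratio for ng3 was 7.64 (5.01 to 12.1), and for ng2, with 3 reads in Canton S, 20.5 (6.70 to 102).

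Called ring gland genes stood on the Canton S side. Of 16 measured genes 11 passed the floor and 4 were called, all higher in Canton S, and the median log2 ratio was -0.67. Of the 4, ouib and tor had a mean below 10 CPM and passed the floor through Canton S alone. Members at that level gave 2 of 2 called, beside 24.5% of all genes. Those from 10 CPM up gave 2 of 9, beside 3.36%. The 5 ring gland markers, none of them at 0, summed to 901 CPM in Canton S and 569 CPM in RAL-208. The ring gland makes ecdysone from cholesterol through the Halloween enzymes. Among these, dib was at 31.6 CPM in Canton S and 7.96 CPM in RAL-208 (3.97-fold, 3.16 to 5.03), and phtm was at 277 and 128 CPM (2.17-fold, 2.04 to 2.30). The zinc finger gene ouib, a regulator of the Halloween gene spok, was at 8.75 and 1.78 CPM. The receptor gene tor, through which prothoracicotropic hormone acts on the gland, was at 8.91 and 2.71 CPM. Members short of 2-fold included sad at 194 and 101 CPM, Start1 at 120 and 66.5 CPM and spok at 373 and 313 CPM, and Npc1a, a sterol transporter, was at 285 and 323 CPM, slightly higher in RAL-208. With a pseudocount of 5 CPM tor fell short of 2-fold. The corpora cardiaca hormone gene Akh was at 26.0 and 18.8 CPM in the strains, and at 0.354 and 0.111 CPM in the mutant libraries. The ecdysone response list had 1 of 18 genes called, a share near the 5.91% of all genes. It was Ldh, lactate dehydrogenase, at 9.49 CPM in Canton S and 21.0 CPM in RAL-208, whose log2 ratio was 0.84 with a pseudocount of 5 CPM, short of 2-fold. The nuclear receptor gene Hr3 was at 94.5 and 52.3 CPM and ImpL1 at 5.20 and 2.29 CPM, both higher in Canton S by less than 2-fold on the log2 scale of CPM plus 1.

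**Figure D3:**
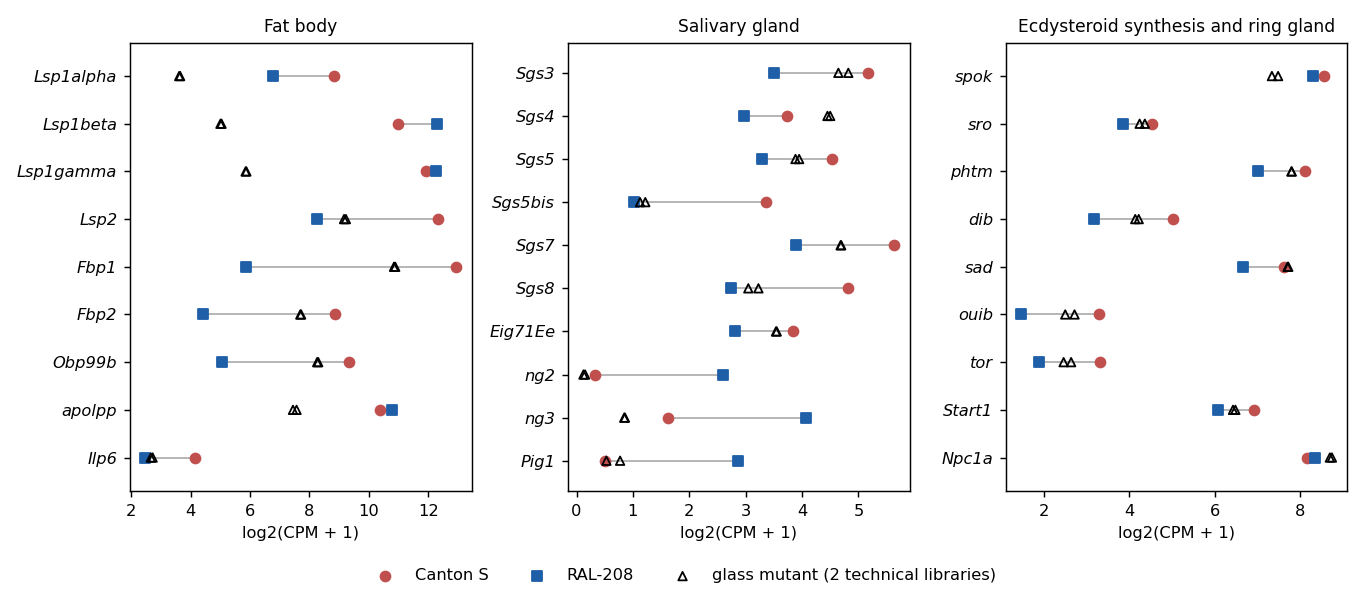
Log2 of CPM plus 1 for fat body, salivary gland and ring gland genes in Canton S (red circles), RAL-208 (blue squares) and the 2 mutant libraries (open triangles), with a grey line joining the strains. Fbp1 runs from 7835 CPM in Canton S to 56.8 CPM in RAL-208 with the mutant between them, Lsp1beta runs the other way, and the glue genes stand opposite to ng2, ng3 and Pig1.

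Among neural lists, called neuropeptide and transmitter genes were mostly higher in RAL-208. Of 46 measured neuropeptide and peptide hormone genes 21 passed the floor, 9 were higher in RAL-208 and 2 in Canton S, and the median log2 ratio was 0.92, beside 0.0079 over all genes. Of the 21, 15 had a mean below 10 CPM and 9 of these were called, beside 24.5% of all genes at that level. Several, such as Ilp2 and FMRFa, passed the floor through RAL-208 alone, so the count and the median lean to that strain by the choice of genes. With a pseudocount of 5 CPM the counts were 5 and 1, and with TMM scaling 8 and 2, Capa falling short. Ilp2, the insulin-like peptide of the brain's median neurosecretory cells, had 9 reads in Canton S and 186 in RAL-208, which is 0.743 and 15.8 CPM, a 21.2-fold difference (10.9 to 47.1). FMRFa and Ms, which encode FMRFamide-related peptides, were at 0.330 and 1.07 CPM in Canton S and 6.78 and 9.23 CPM in RAL-208. Nplp4, a neuropeptide-like precursor, was at 0.495 and 10.3 CPM, and Hug, a feeding-related neuropeptide of the suboesophageal ganglion, at 0.825 and 6.27 CPM. The remaining called genes on this side were Proc, SIFa, Dh31 and Capa, the largest of them Proc at 8.75 and 29.4 CPM. On the other side stood CCHa2, a nutrient-responsive peptide, at 11.9 CPM in Canton S and 4.57 CPM in RAL-208, beside Ilp6. The mutant libraries were at or below 1.33 CPM for Ilp2, FMRFa, Ms, Hug, Proc, SIFa, Dh31 and Capa, and at 4.96 and 5.47 CPM for Nplp4.

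Transmitter synthesis and receptor genes gave 5 of 24 called, all higher in RAL-208, with a median log2 ratio of 0.60, and 2 with a pseudocount of 5 CPM. Of 11 members with a mean below 10 CPM 2 were called, beside 24.5% of all genes, and of 13 from 10 CPM up 3 were called, beside 3.36%. Gad1, the enzyme that makes GABA, was at 11.3 CPM in Canton S and 36.8 CPM in RAL-208 (3.26-fold, 2.68 to 3.98), and Vmat, the vesicular monoamine transporter, at 12.7 and 33.2 CPM. The receptor genes nAChRalpha5, Rdl and Dop2R were between 2.25- and 2.36-fold higher in RAL-208. The count of 5 includes Dop2R, at 3.30 and 7.79 CPM, which passed the floor through RAL-208 alone. Its direction was thus set by the choice of genes. In the neuron and synapse list Gad1 and Vmat were again the genes higher in RAL-208, of 23, and 1 was higher in Canton S, namely ple, tyrosine hydroxylase of dopamine synthesis and cuticle tanning, at 16.6 and 5.59 CPM. From 10 CPM up that list gave 3 of 21 called, beside 3.36% of all genes. The neuroblast and brain list had 1 of 15 called, cas, a temporal factor of embryonic and larval neuroblasts, with 147 reads in Canton S and 342 in RAL-208, and the list had a median of 0.54; its log2 ratio with a pseudocount of 5 CPM was 0.99. That count of 1 is near the background of 5.91%. Antp, a homeotic gene of the thorax and its nerve cord, was at 18.6 and 42.9 CPM and was the member called of 8 in the Hox and head gap list. From 10 CPM up that was 1 of 7, beside 3.36% of all genes. The Dpr and DIP family of neuronal surface proteins had 0 of 20 called, with a median of 0.10, and the Beat and Side family 1 of 17, with a median of 0.04. With a mean below 10 CPM these were 0 of 14 and 1 of 7, beside 24.5% of all genes. From 10 CPM up they were 0 of 6 and 0 of 10, beside 3.36%. The called gene, beat-Ib at 2.15 and 5.68 CPM, passed the floor through RAL-208 alone. The 4 brain markers measured summed to 151 CPM in Canton S and 195 CPM in RAL-208 and none was called, and the 4 glial markers summed to 388 and 431 CPM, with Gs2, glutamine synthetase, called at 20.4 and 60.7 CPM. None of these markers was at 0. The glia list had 2 of 14 called, the type IV collagen gene vkg and Gs2, both higher in RAL-208. From 10 CPM up it gave 2 of 13, beside 3.36% of all genes. Its median log2 ratio was -0.01, with 7 members below 0 and 7 above. The list summed to 1753 CPM in Canton S and 1691 CPM in RAL-208. Its most abundant members, bnb and Gli, were at 568 and 435 CPM in Canton S and at 338 and 374 CPM in RAL-208. The part of brain or nerve tissue in these differences was not tested.

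Phototransduction genes gave 2 of 11 called, both higher in RAL-208, out of 27 measured. The 2 genes passed the floor through RAL-208 alone, so their direction was set by the choice of genes. Members with a mean below 10 CPM gave 2 of 3 called, beside 24.5% of all genes. Those from 10 CPM up gave 0 of 8, beside 3.36%. Rh6, a rhodopsin that larval photoreceptors of the Bolwig organ express, had 9 reads in Canton S and 99 in RAL-208, 0.743 and 8.39 CPM, an 11.3-fold difference (5.71 to 25.4). Arr1, an arrestin, was at 0.330 and 6.78 CPM (20.5-fold, 7.71 to 77.2). Both were at 0 CPM in the mutant libraries. Below the floor in both strains, Rh5, the other larval rhodopsin, was at 0.825 and 2.96 CPM, and trpl, a light-gated channel, at 0.330 and 3.05 CPM. By contrast inaC, the eye protein kinase C, was at 36.2 CPM in Canton S and 33.0 CPM in RAL-208.

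Called haemocyte genes were mostly higher in RAL-208, with 1 gene far on the other side. Of 17 genes past the floor 5 were called higher in RAL-208 and 1 in Canton S, and the median log2 ratio was 0.26. Log2 ratios were above 0 for 11 of the 17 and below 0 for 6. All 6 called genes were among the 16 from 10 CPM up, where 3.36% of all genes were called. The 5 haemocyte markers, none of them at 0, summed to 783 CPM in Canton S and 1065 CPM in RAL-208. Among these markers Ppn was lower in RAL-208, at 460 CPM in Canton S and 347 CPM in RAL-208, short of 2-fold. Hml, the clotting-factor-like gene that marks plasmatocytes, was at 149 CPM in Canton S and 395 CPM in RAL-208 (2.66-fold, 2.52 to 2.81). The phagocytosis receptor genes eater and Sr-CI were at 25.4 and 15.3 CPM in Canton S and at 64.0 and 35.8 CPM in RAL-208. The type IV collagen genes Col4a1 and vkg, made by haemocytes and fat body, were 2.54- and 3.08-fold higher in RAL-208, at 393 and 255 CPM. Pxn, peroxidasin, at 133 and 238 CPM, and PPO2, a crystal cell prophenoloxidase, at 57.0 and 38.9 CPM, did not reach 2-fold. NimC2, a Nimrod family receptor gene, was at 72.9 CPM in Canton S and 1.86 CPM in RAL-208, 39.1-fold lower in RAL-208 (25.7 to 62.8), with the mutant libraries at 29.8 and 28.1 CPM. Another Nimrod gene, NimB2, was 2.86-fold higher in RAL-208, so NimC2 departed from the direction of the other called haemocyte genes.

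Basement membrane and collagen processing genes gave 4 of 14 called, all higher in RAL-208, and 2 with a pseudocount of 5 CPM. Beside the collagen pair they were PH4alphaMP, a prolyl hydroxylase family member, at 1.73 and 7.28 CPM, and prc, pericardin, a matrix protein of the heart and fat body, which had 1 read in Canton S and 60 in RAL-208, a ratio of 61.6 (10.6 to 2473). PH4alphaMP and prc passed the floor through RAL-208 alone. Members with a mean below 10 CPM gave 2 of 2 called, beside 24.5% of all genes. Those from 10 CPM up gave 2 of 12, beside 3.36%. Tep1, a thioester protein of the immune system, was at 19.4 and 60.4 CPM, and Idgf6, an imaginal disc growth factor of the chitinase-like family, at 170 and 364 CPM. Muscle genes gave 3 of 15 called, all higher in RAL-208, with a median of 0.68, beside 3.36% of all genes called from 10 CPM up, where the muscle genes lie. The 3 muscle markers measured, none of them at 0, summed to 130 CPM in Canton S and 212 CPM in RAL-208. The called genes were bt, a titin-like kinase, at 25.7 and 75.3 CPM, Mlc2, myosin light chain, at 26.7 and 67.5 CPM, and Mf, myofilin, at 19.1 and 41.3 CPM, which fell short of 2-fold with a pseudocount of 5 CPM (0.94). The giant sarcomere gene sls, at 282 and 387 CPM, was short of 2-fold, and Act87E, an actin gene, was at 27.5 CPM in Canton S and 14.4 CPM in RAL-208. Trachea genes gave 0 of 14 called.

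**Figure D4:**
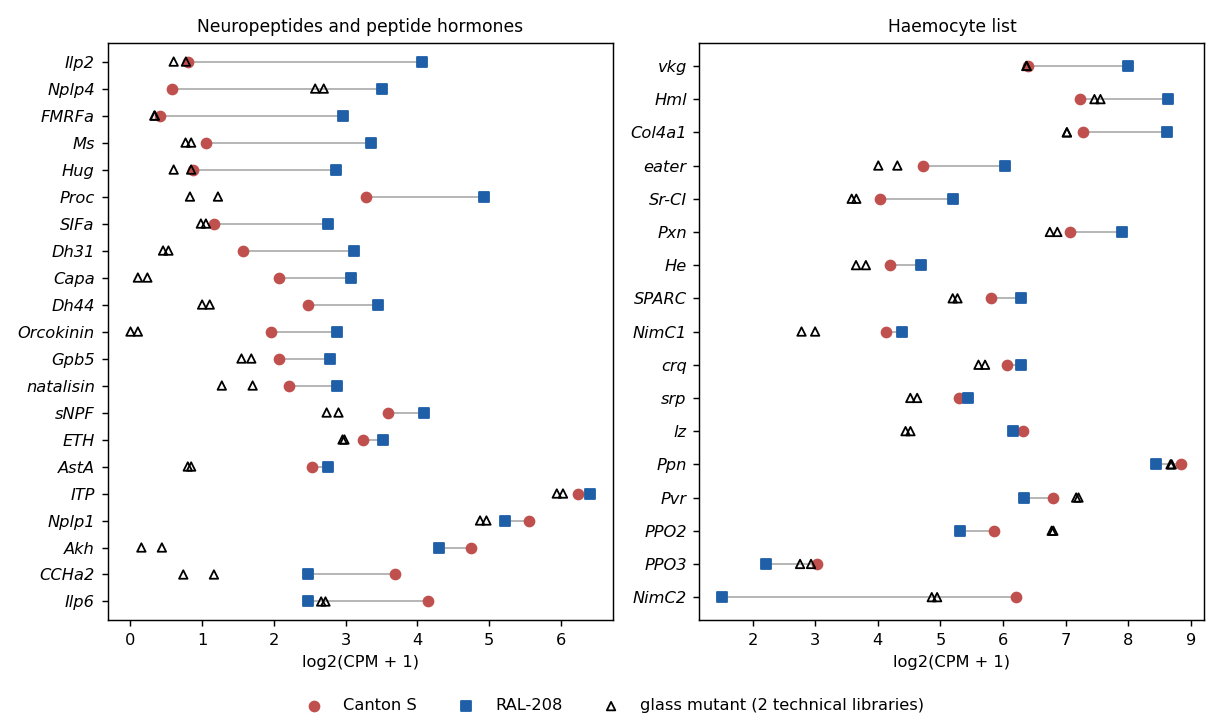
Log2 of CPM plus 1 for the 21 neuropeptide and 17 haemocyte genes past the floor in Canton S (red circles), RAL-208 (blue squares) and the 2 mutant libraries (open triangles), with a grey line joining the strains. Genes are ordered by their ratio, Ilp2 heads the peptides at 0.743 and 15.8 CPM, and NimC2 lies at 72.9 CPM in Canton S and 1.86 CPM in RAL-208 against the direction of Hml and the collagen genes.

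Transcripts of the mitochondrial genome were lower in RAL-208, with the exception of ribosomal RNA. Of 36 measured mitochondrial genes 9 passed the floor. Of these, 7 were higher in Canton S and 1 in RAL-208, and the median log2 ratio was -2.29. Members from 10 CPM up gave 7 of 8 called, beside 3.36% of all genes. Those with a mean below 10 CPM gave 1 of 1, beside 24.5%, namely mt:ND2 at 7.18 and 0.678 CPM. The genes mt:ND2, mt:CoII, mt:ATPase6 and mt:Cyt-b passed the floor through Canton S alone. The cytochrome oxidase subunit gene mt:CoII was at 317 CPM in Canton S and 2.54 CPM in RAL-208, a 125-fold difference (87.3 to 185). Its neighbours mt:ATPase6 and mt:CoIII were at 49.8 and 806 CPM in Canton S and at 0.424 and 26.9 CPM in RAL-208. The gene mt:CoI, with the most reads of them, was at 1797 and 448 CPM, a 4.01-fold difference (3.89 to 4.14), and mt:Cyt-b, cytochrome b, was at 67.5 and 1.19 CPM. The large ribosomal RNA mt:lrRNA went the other way, at 41.3 CPM in Canton S and 147 CPM in RAL-208, and mt:ND1, at 70.7 and 45.7 CPM, did not reach 2-fold. Over all 36 genes the sum was 3185 CPM in Canton S, 682 CPM in RAL-208, and 2933 and 3216 CPM in the mutant libraries, so the sum of RAL-208 stood below that of the other 3 libraries. The nuclear-encoded respiratory chain subunits, by contrast, summed to 6304 and 6257 CPM, with 0 of 54 called and a median of -0.06. Ratios between mitochondrial genes were thus uneven, from 1.55-fold for mt:ND1 to 125-fold for mt:CoII. Reads that aligned to more than 1 place stand in a summary line of the deposited tables and belong to no gene. Their share was 15.9% for Canton S and 17.0% for RAL-208, and their part in the mitochondrial differences was not tested.

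**Figure D5:**
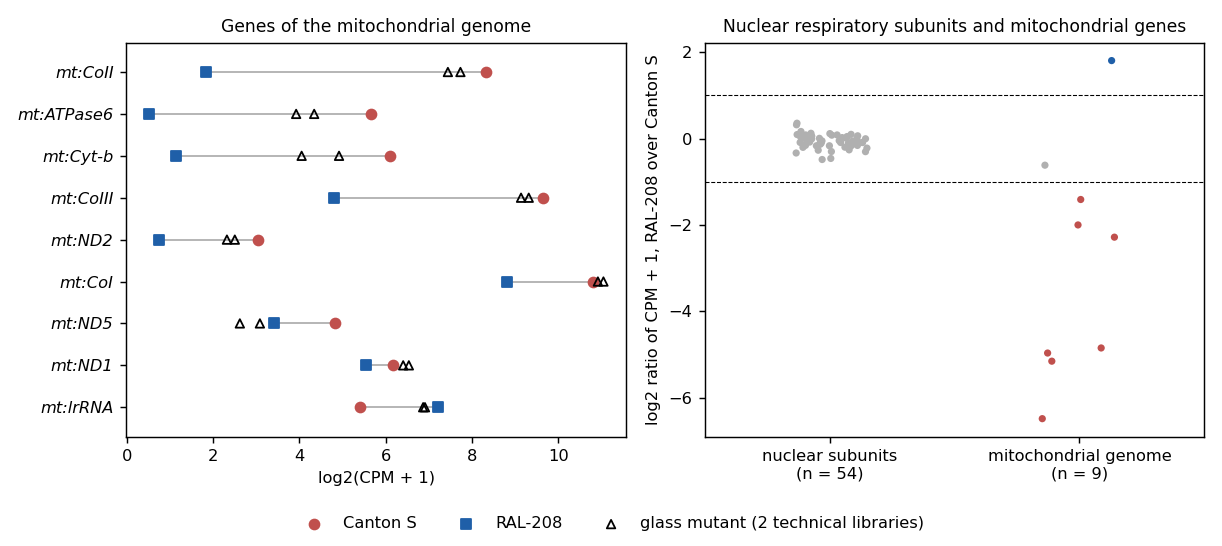
Left, log2 of CPM plus 1 of the 9 mitochondrial genes past the floor in Canton S (red circles), RAL-208 (blue squares) and the 2 mutant libraries (open triangles); right, log2 ratio of CPM plus 1, RAL-208 over Canton S, of nuclear-encoded respiratory chain subunits and of mitochondrial-genome genes. The nuclear subunits lie within 2-fold, while mitochondrial genes extend to -6.49 for mt:CoII and mt:lrRNA lies at 1.81.

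Detoxification families were spread in both directions. Cytochrome P450s, glutathione S-transferases, UDP-glycosyltransferases and carboxylesterases together had 170 measured genes and 59 past the floor, of which 14 were higher in RAL-208 and 7 in Canton S. Members with a mean below 10 CPM gave 9 of 16 called, beside 24.5% of all genes, and those from 10 CPM up 12 of 43, beside 3.36%. Carboxylesterases leaned most to RAL-208, with 5 of 8 called, 3 of them from 10 CPM up, and a median log2 ratio of 1.24. Est-6, alpha-Est2, alpha-Est10 and alpha-Est1 passed the floor through RAL-208 alone. The count and the median of this family thus lean to that strain by the choice of genes. Est-6, an esterase of the male reproductive tract and haemolymph, had 3 reads in Canton S and 332 in RAL-208, a ratio of 114 (38.5 to 554). The alpha-esterase cluster genes alpha-Est2 and alpha-Est7 were at 2.89 and 17.9 CPM in Canton S and at 31.5 and 45.6 CPM in RAL-208, and alpha-Est10 and alpha-Est1 were 4.90- and 2.58-fold higher in RAL-208.

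The P450 family had 84 measured genes and 24 past the floor, with 6 higher in RAL-208 and 2 in Canton S. Members with a mean below 10 CPM gave 5 of 9 called, beside 24.5% of all genes. Those from 10 CPM up gave 3 of 15, beside 3.36%. Cyp6g1, known for its part in DDT resistance of natural strains, was at 20.4 CPM in Canton S, 60.6 CPM in RAL-208 (2.97-fold, 2.57 to 3.45), and 6.20 and 6.43 CPM in the mutant libraries. Cyp6a17 had 0 reads in Canton S and 152 in RAL-208, at least 52.0-fold higher in RAL-208, and stood at 36.6 and 32.9 CPM in the mutant. Its near-identical neighbour Cyp6a23 was at 0.660 CPM in Canton S and 1.52 CPM in RAL-208, and reads that match both copies cannot be assigned, so the levels of this pair are uncertain. Cyp6w1 had 0 reads in Canton S and 109 in RAL-208, at least 37.3-fold higher. On the Canton S side were Cyp309a1, with 113 reads against 2, a ratio of 55.0 (14.9 to 460), and Cyp28d1, at 12.3 and 4.40 CPM. Cyp309a1 and Cyp28d1 passed the floor through Canton S alone, and Cyp6a17 and Cyp6w1 through RAL-208 alone. The direction of these genes was thus set by the choice of genes.

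Glutathione S-transferases were called in both directions, 4 of 19 higher in Canton S and 1 in RAL-208, or 1 and 1 with a pseudocount of 5 CPM. Members with a mean below 10 CPM gave 1 of 2 called, beside 24.5% of all genes. Those from 10 CPM up gave 4 of 17, beside 3.36%. The family summed to 1660 CPM in Canton S and 1703 CPM in RAL-208. GstO3, an omega class enzyme, was at 141 and 43.5 CPM, 3.25-fold higher in Canton S (2.94 to 3.59), and the theta class genes GstT2 and GstT3 were at 14.6 and 19.1 CPM against 4.91 and 7.79 CPM. GstE1 was 5.09-fold higher in RAL-208, at 4.46 and 22.7 CPM, while the abundant GstD1, at 402 and 685 CPM, was not called. GstT2 passed the floor through Canton S alone and GstE1 through RAL-208 alone, so their direction was set by the choice of genes. Among 8 UDP-glycosyltransferases, Ugt302K1 and Ugt35C1 were 9.82- and 9.97-fold higher in RAL-208, and Ugt36D1 was 2.64-fold higher in Canton S. Ugt302K1 and Ugt35C1 passed the floor through RAL-208 alone, which set their direction. Members of this family with a mean below 10 CPM gave 1 of 2 called, beside 24.5% of all genes. Those from 10 CPM up gave 2 of 6, beside 3.36%.

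Cuticle protein genes had 126 measured members and 16 past the floor, of which 7 were higher in RAL-208 and 3 in Canton S. Members with a mean below 10 CPM gave 3 of 7 called, beside 24.5% of all genes. Those from 10 CPM up gave 7 of 9, beside 3.36%. Called genes that passed the floor through RAL-208 alone included Cpr49Ag, Cpr97Ea and Lcp65Af, so the count leans to that strain by the choice of genes. The larval cuticle genes Lcp1, Lcp3 and Lcp4 were at 14.2, 6.85 and 19.1 CPM in Canton S and at 36.3, 19.5 and 53.1 CPM in RAL-208, while Lcp2, at 5.78 and 6.95 CPM, was not called. Cpr49Ag had 3 reads in Canton S and 102 in RAL-208, a ratio of 34.9 (11.6 to 172). On the other side Cpr49Ac, at 292 and 101 CPM, and Cpr51A, at 63.4 and 22.7 CPM, were 2.87- and 2.79-fold higher in Canton S. The family thus had called members in both directions. Tetraspanins, membrane proteins with 4 membrane spans, had 4 of 17 called, all higher in Canton S and all in the cluster at 42E, and 2 with a pseudocount of 5 CPM. The 4 called genes had a mean of at least 10 CPM, where 3.36% of all genes were called. The largest difference among them was Tsp42Ep, at 28.2 and 1.44 CPM (19.6-fold, 12.1 to 34), followed by Tsp42Ek at 27.9 and 4.57 CPM.

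Gut-type families were represented by few genes. Maltases had 3 of 3 past the floor higher in Canton S, with Mal-A6 at 92 reads against 0, at least 29.9-fold higher, and Mal-A5 at 77.2 and 23.9 CPM, while Mal-B2 fell short of 2-fold with a pseudocount of 5 CPM (-0.81). Mucins had 2 of 2 higher in RAL-208, among them Muc68Ca at 1.24 and 40.2 CPM (32.4-fold, 19.5 to 58.4), and Muc96D, which fell short with that pseudocount (0.91). Mal-A6 and Mal-B2 passed the floor through Canton S alone, and both mucins through RAL-208 alone. The direction of these genes was thus set by the choice of genes. Mal-A6, Mal-B2 and Muc96D had a mean below 10 CPM, where 24.5% of all genes were called. For Mal-A5 and Muc68Ca, from 10 CPM up, that share was 3.36%. Digestive proteases had 2 genes past the floor of 31 measured, and neither was called. The 4 gut markers summed to 5.61 CPM in Canton S and 9.06 CPM in RAL-208, and the lowest of them stood at 0.0825 and 0.254 CPM.

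Immune genes were called in both directions, most of them at low level. Of 36 genes of the innate immune list 10 passed the floor and 2 were called, the peptidoglycan recognition genes PGRP-SD and PGRP-SA, at 5.28 and 6.44 CPM in Canton S and at 0.932 and 2.03 CPM in RAL-208. Both passed the floor through Canton S alone, so their direction was set by the choice of genes. Members with a mean below 10 CPM gave 2 of 2 called, beside 24.5% of all genes. Those from 10 CPM up gave 0 of 8, beside 3.36%. TotA, a stress-induced humoral factor of the Turandot family, was at 113 and 20.7 CPM, 5.45-fold higher in Canton S (4.75 to 6.27). IM33, an immune-induced peptide gene, was on the other side, with 5 reads in Canton S and 596 in RAL-208, at 0.413 and 50.5 CPM, a 122-fold difference (52.1 to 378). Serpins, inhibitors of serine proteases, had 1 gene higher in RAL-208, Spn28B, with 0 reads against 129 (at least 44.1-fold), and 2 higher in Canton S, including Spn47C with 145 reads against 14. Each called serpin passed the floor through a single strain, so its direction was set by the choice of genes. Serpins with a mean below 10 CPM gave 3 of 4 called, beside 24.5% of all genes. Those from 10 CPM up gave 0 of 7, beside 3.36%. In the piRNA list 1 of 12 genes was called, krimp, a Tudor domain protein of transposon silencing in the germ line, with 61 reads in Canton S and 3 in RAL-208, a ratio of 19.8 (6.47 to 98.7). It passed the floor through Canton S alone, so its direction was set by the choice of genes. Members of this list with a mean below 10 CPM gave 1 of 3 called, beside 24.5% of all genes. Those from 10 CPM up gave 0 of 9, beside 3.36%.

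The called genes together held 3.01% of the gene reads of Canton S and 1.76% of those of RAL-208. The largest losses in CPM from Canton S to RAL-208 included Fbp1, Lsp2, mt:CoI and mt:CoIII, and the largest gains Lsp1beta, Lsp1gamma, RpS3A at 2587 and 3454 CPM, Hsp83 at 3695 and 4449 CPM, and lncRNA:CR42862 at 5008 and 5749 CPM, of which Lsp1beta was called. Among the genes farthest apart, several had reads in a single strain. RAL-208 had 8 named genes with at least 5 CPM and 0 reads in Canton S: Cyp6a17, Cyp6w1, Spn28B, CG1701, CG13032, CG32198, sordd2 and the ribosomal RNA pseudogene 18SrRNA-Psi:CR41602, with 3 further genes without a symbol. The gene sordd2 stood at 27.3 CPM, at least 110.2-fold higher, and CG1701 at 21.4 CPM, at least 86.6-fold. The pseudogene 18SrRNA-Psi:CR41602 stood at 69.7 CPM in RAL-208, and its reads may be shared with other ribosomal copies, so its level is uncertain. Canton S had 5 such genes, namely Sid, CG7763, Mal-A6, CR40190 and 28SrRNA-Psi:CR41609. Sid, a stress-induced nuclease, had 146 reads in Canton S, at least 47.4-fold higher. The mutant libraries had at most 1 read for sordd2, CG1701, CG13032 and Spn28B, and they did have reads of Sid, at 4.96 and 6.51 CPM.

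Further genes with large ratios stood on both sides. The sugar transporter gene sut2 had 3 reads in Canton S and 421 in RAL-208, a ratio of 144 (49.0 to 701). Gnmt, glycine N-methyltransferase of the fat body, had 6 and 484 reads, at 0.495 and 41.0 CPM. Miox, an inositol oxygenase gene named after its values were seen, was at 27.9 CPM in Canton S and 260 CPM in RAL-208, 9.31-fold higher (8.32 to 10.4). The channel gene ppk13, of the degenerin family, had 438 reads in Canton S and 2 in RAL-208, a ratio of 213 (58.7 to 1767), and its neighbour CG33509 had 233 and 1, a ratio of 227 (40.3 to 9003). The mutant libraries were close to RAL-208 for this pair, at 0.266 and 0.074 CPM for ppk13.

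Some called genes were neighbours and shared a direction. The order was taken over the 7363 genes past the floor with a place in the reference, of which 444 were called, 6.03%, and genes below the floor were skipped. Of the 444, 98 (22.1%) lay in 42 runs of called neighbours, 20 higher in Canton S and 22 higher in RAL-208, and 8 runs held 3 or more. Of the 56 neighbouring pairs in these runs, 30 had no other gene of the table between them and 26 had at least 1 gene below the floor between. The longest were 7 mitochondrial genes higher in Canton S. Runs higher in RAL-208 were CG14265 with ng2, ng3 and Pig1, CG42822 with CG33333, CG42834 and CG14332, nAChRalpha5 with CG15293 and CG31769, and CG6912 with CG3984 and Mf. Runs higher in Canton S were Sgs8 with Sgs7 and Sgs3, Tsp42Ej with Tsp42Ek and Tsp42El, and the organic cation transporter genes Orct2 and Orct with CG6356. The transporters were at 41.5, 37.2 and 24.9 CPM in Canton S and at 16.5, 14.2 and 8.05 CPM in RAL-208. Without strand or the annotation release, reads of overlapping neighbours cannot be told apart.

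The place of the mutant libraries differed with the strain that was higher. For the 220 genes higher in Canton S, both mutant libraries lay between the strains for 141 (64.1%), above both for 35 and below both for 31. For the 251 genes higher in RAL-208 they lay below both strains for 139 (55.4%), between for 72 (28.7%) and above both for 19. Over the 7505 genes not called the mutant lay between the strains for 14.5% and below both for 40.7%. These shares share the strain values with the calls themselves, and the position between is more likely where the strains lie far apart.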

How the data were processed

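RNA of eye-antennal discs was sequenced from 2 wild-type strains, 1 library each, and from the mutant gl[60j] as 2 technical libraries, with a TruSeq preparation per the labels' protocols. The authors deposited raw read counts for each FlyBase gene, as whole numbers with no scaling. Per the submitters' processing notes, the tools were CASAVA 1.8, TopHat2 2.0 and HTSeq and the build was dm3, with no role stated. How HTSeq treated overlaps and strand, and which annotation it read, is not given in the sources used here. Per the file contents, 5 summary lines end each table and were left out of library sizes; they hold reads without a unique alignment (15.9% for Canton S and 17.0% for RAL-208, of all reads counted), outside genes (6.04% and 7.16%) and ambiguous (1.40% and 1.38%), leaving 76.7% and 74.4% in genes. Gene reads numbered 11292175 and 27044633 in the mutant libraries.

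CPM were computed from gene reads, and log2 ratios of CPM plus 1 were taken for genes with at least 5 CPM in either strain; 2-fold on that scale is a call. The pseudocount understates the ratio of low genes. No test or p-value is given, since there is 1 library per strain. Intervals of read ratios are exact (Clopper-Pearson, 95%) and a count of 0 is set to a floor of 3 reads, both for counting error only. Of 14885 genes 13746 had a symbol in the BDGP6 reference table and 1139 had none, 613 of them past the floor and 27 called. That assembly is not dm3, so it served for names and gene order alone. Python 3.11.15, numpy 2.4.6, pandas 2.3.3, scipy 1.17.1 and matplotlib 3.10.9 were used, with TMM from edgeR 4.0.16 and size factors from DESeq2 1.42.0 in R 4.3.3 as alternative scalings only. The intervals were tested on simulated data.

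Genes named are the 12 largest and 12 smallest ratios, the 5 largest CPM gains and losses, up to 4 called and 2 most abundant members of each list or family, members of runs of 3 or more neighbours, and genes with 0 reads in a single strain; some further list members are named beside them and were chosen after their values were seen. Members and lists were chosen with earlier results of these data known, and 8 lists (neuropeptides, transmitters, basement membrane, ecdysteroid synthesis, insulin signalling, larval serum proteins, glue proteins and intermoult genes) and corrections to family patterns were added after values were seen.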

Additional observations from a re-analysis of the deposited data

How the results depend on the processing

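No paired analysis was possible because each strain has 1 library and the labels give the strains no replicate number. For the same reason no library could be left out. The 220 genes higher in Canton S became 137 with a pseudocount of 5 CPM, 414 at 1.5-fold and 107 at 3-fold. The 251 genes higher in RAL-208 became 153 with a pseudocount of 5 CPM, 391 with a floor of 1 CPM and also with no floor, 532 at 1.5-fold and 119 at 3-fold. TMM scaling gave 225 and 245, median-of-ratios scaling 226 and 245, a pseudocount of 0.5 CPM 230 and 265, and a floor of 10 CPM 153 and 176. The 4 genes apart between the mutant libraries became 5 when the second was thinned to the depth of the first. TMM moved the median log2 ratio of all genes by -0.025 and median-of-ratios scaling by -0.029. No called gene named in the text changed direction under these settings, while genes near a ratio of 1, such as polo and Gbeta13F, changed sign with another scaling. With a pseudocount of 5 CPM low genes of the neuropeptide, transmitter, salivary gland, basement membrane, tetraspanin, maltase, mucin, muscle and glutathione S-transferase lists fell short of 2-fold, as did cas (0.99), tor (-0.85), st (-0.65), PGRP-SA (-0.70), PGRP-SD (-0.79) and krimp (-0.93). Depth limits the genes with few reads, whose intervals are wide.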
